A study of Drosophila melanogaster with 18 samples.

Results

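The 8 genes described here make, break down or respond to juvenile hormone in *Drosophila melanogaster*. They were taken from the table by FlyBase symbol: jhamt, Met, gce, Kr-h1, Jhe, Jheh1, Jheh2 and Jheh3, which are 8 of the 17562 genes in the read count table. All 8 were detected in each of the 18 libraries, and all 8 passed the filter on low counts in every comparison.

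Juvenile hormone is a sesquiterpenoid made by the corpora allata, endocrine cells that in fly larvae form part of the ring gland. Its presence lets a larva grow and moult without metamorphosis, and its titre falls before pupariation. The methyltransferase encoded by jhamt acts at the end of the synthetic pathway, the bHLH-PAS proteins Met and Gce are the hormone receptors, and the zinc finger gene Kr-h1 is their best-known target. Juvenile hormone esterase (Jhe) cleaves the methyl ester of the hormone, whereas the epoxide hydrolases encoded by Jheh1, Jheh2 and Jheh3 open its epoxide ring.

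RNA-seq was carried out on whole third-instar larvae of a wild type (WT, the isogenic w1118 strain) and of 5 strains that each lack 1 U1 snRNA gene, with 3 replicates per group. U1 snRNA is the RNA of the spliceosome that base pairs with the 5′ splice site. The deletions removed U1:21D, U1:82Eb, U1:95Ca, U1:95Cb or U1:95Cc by CRISPR/Cas9 with Cas9 driven by nanos, a germline promoter, and the homozygous lines had been crossed repeatedly to WT. Nothing stated that replicates were separate cultures, so p-values measure the spread between these libraries only, which may be technical.

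Totals ran from 11919121 to 21776613 counts per library, and 3 counts corresponded to 0.252 CPM (counts scaled to a library total of 1e6 counts) in the shallowest. Counts of U1:21D, U1:82Eb, U1:95Cb and U1:95Cc were 0 in each library of the matching strain and summed to 11, 8, 9 and 5 in WT. U1:95Ca had 4 counts in WT and 0, 5 and 0 in its own strain, so the second of these is called below the library labelled 95Ca deletion, replicate 2. In each strain 126 to 924 genes were called, meaning that they differed from WT by more than 2-fold with an adjusted p below 0.05 in edgeR's quasi-likelihood test. Libraries also differed within groups: on the first principal component of the 500 most variable genes (53.3% of the variance) replicate 2 of WT, 21D and 82Eb scored 48.0, 74.3 and 44.6, while the other libraries of these groups lay between -25.4 and -11.6.

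In the dm6 genome, jhamt (FBgn0028841) lies on chromosome arm 2L at 16365903 to 16367039 and Kr-h1 (FBgn0266450) at 6082603 to 6096498 of the same arm. Met (FBgn0002723; 11616124 to 11621280) and gce (FBgn0261703; 15297766 to 15319074) are X-linked. Jhe (FBgn0010052) occupies 16119793 to 16122773 of arm 2R. The 3 hydrolase genes form a tandem cluster of 8645 bases on the minus strand of 2R: Jheh1 (FBgn0010053) at 18853434 to 18855087, Jheh2 (FBgn0034405) at 18855767 to 18858245, and Jheh3 (FBgn0034406) at 18860375 to 18862078. These paralogs are 679 and 2129 bases apart, and how reads matching more than 1 of them were counted is not stated. Exons of Kr-h1 overlap those of CG45075 on the same strand over 4168 of 5306 bases, and CG45075 had 0 counts in every library. Exons of gce overlap 2 antisense RNA genes, asRNA:CR44429 and asRNA:CR44961, over 2364 bases; these had at most 24 and 3 counts.

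Per kilobase of exon the hydrolases were the most abundant of the 8 genes. Averaged over the 18 libraries the levels in CPM per kilobase were 70.5 for Jheh2, 51.4 for Jheh3 and 31.5 for Jheh1. Kr-h1 followed at 13.8, gce at 9.36 and Met at 8.59 CPM per kilobase, ahead of Jhe at 3.32 and jhamt at 1.36. The order of the hydrolases was not the same in all groups: in WT, Jheh3 was highest at 101 ± 28.6 CPM per kilobase (SD, n = 3), with Jheh2 at 79.1 ± 28.5 within its spread. Relative ranges were widest for Jheh3, whose highest library exceeded its lowest 5.76-fold, and narrowest for Met at 2.26-fold.

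**Figure D1:**
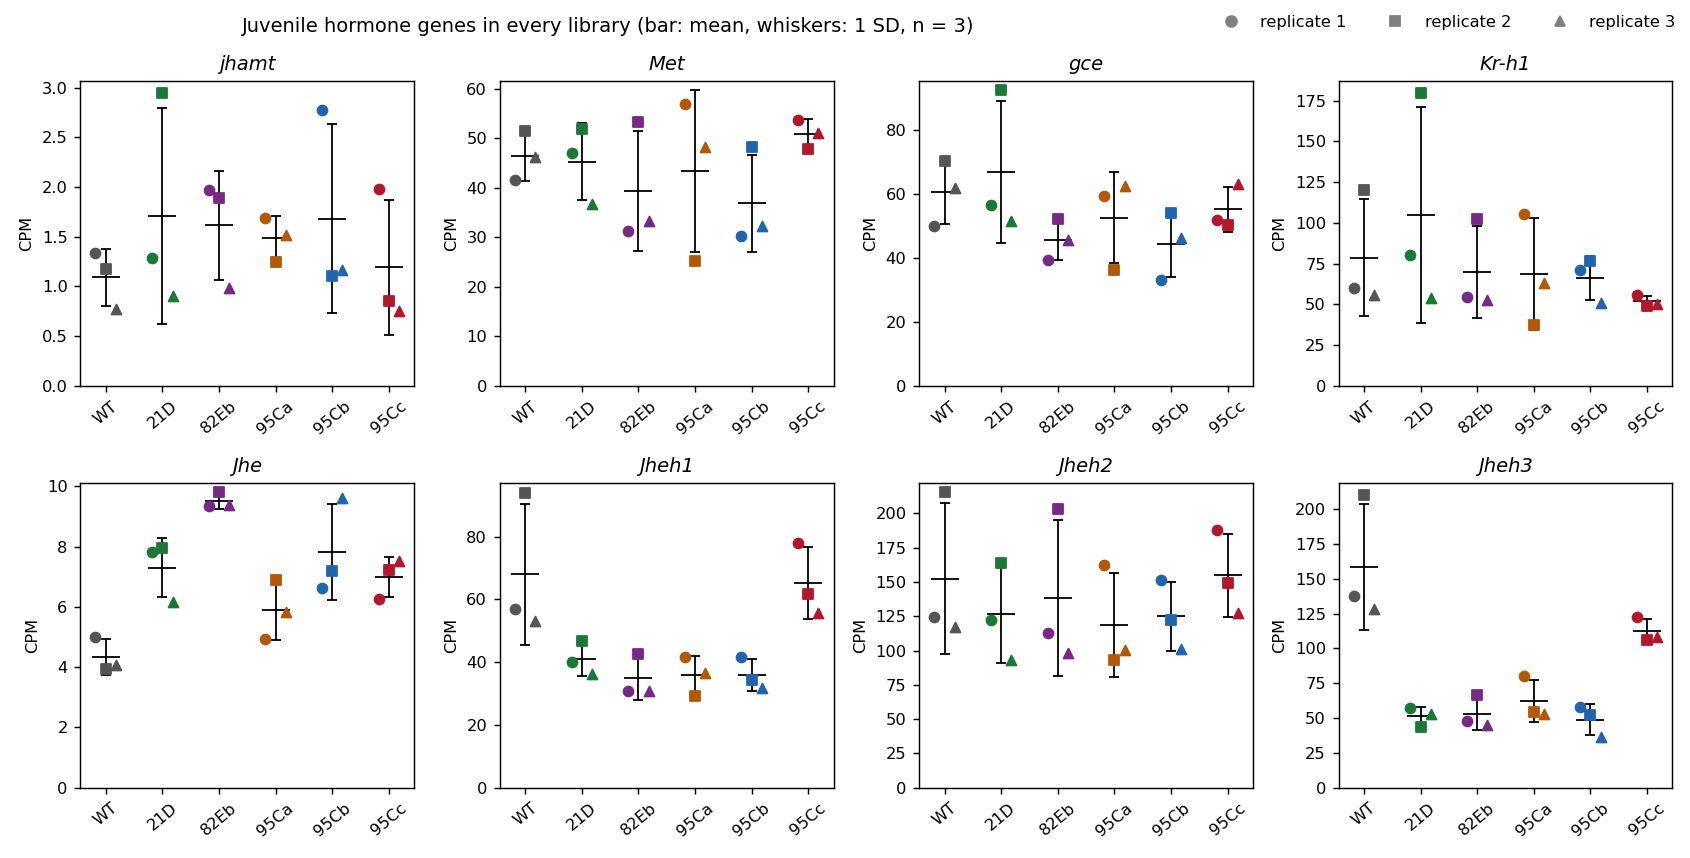
CPM (linear axes from 0) of the 8 genes in each of the 18 libraries by group, with replicates marked by symbol; bars are group means and whiskers 1 SD (n = 3). All Jheh3 libraries of the 5 deletion strains lie below the lowest WT library (128 CPM), whereas Jheh2, Kr-h1, gce, Met and jhamt overlap WT in every strain.

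Among the 8 genes, the one called in most strains was Jheh3, at a lower level than in WT. In WT replicates 1, 2 and 3 Jheh3 stood at 137, 210 and 128 CPM. It read 57.4, 43.9 and 52.5 CPM in the 21D strain, 47.6, 66.8 and 45.0 in the 82Eb strain, and 57.7, 52.4 and 36.5 in the 95Cb strain. The 95Ca strain had 79.8, 54.6 and 52.9 CPM, the middle value being the library labelled 95Ca deletion, replicate 2. The 95Cc libraries lay nearer to WT, at 123, 106 and 108 CPM. Every library of the 5 strains was thus below every WT library, although the highest 95Cc library was close to the lowest of WT. As these were whole larvae, fewer cells of an expressing type and less RNA per cell cannot be told apart.

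Jheh3 fell in 4 of the 5 strains. Its mean was 0.308 of the WT mean in 95Cb (log2 fold change -1.74, SE 0.19, adjusted p = 0.00251), 0.335 in 82Eb (-1.53, SE 0.15, adjusted p = 0.00288), 0.394 in 95Ca (-1.26, SE 0.18, adjusted p = 0.0139) and 0.323 in 21D (-1.52, SE 0.24, adjusted p = 0.0479). In 95Cc the ratio was 0.708 (-0.44, SE 0.13, adjusted p = 0.10), which was not called. The calls in 82Eb and 95Cb were kept when any single library was left out. The call in 21D was lost without any 1 of WT replicates 1, 2 and 3 or 21D replicates 1 and 3 (adjusted p from 0.148 to 0.230), with the log2 fold change still between -1.63 and -1.40, and with library totals in place of TMM scaling (0.0596) or no filter (0.0572). It was kept with replicate numbers as a block (-1.53, adjusted p = 0.0150), a fit that called 3.7% of all genes. Without the library labelled 95Ca deletion, replicate 2, the value in 95Ca was -1.25 with an adjusted p of 0.0656, and leaving out 95Ca replicate 3, WT replicate 1 or WT replicate 3 also ended that call (adjusted p from 0.0526 to 0.108), as did library totals (0.0565) and replicate numbers as a block (0.139).

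Jheh1, its neighbour at the other end of the cluster, was lower in the same 4 strains by less than 2-fold. WT libraries had 56.9, 93.9 and 53.3 CPM. The mean was 41.0 ± 5.40 CPM in 21D, and 34.8 ± 6.79, 35.8 ± 6.19 and 35.9 ± 5.22 CPM in 82Eb, 95Ca and 95Cb (SD, n = 3), and all 12 of these libraries were below all WT libraries, the highest at 46.9 CPM. The 95Cc libraries read 78.1, 61.8 and 55.7 CPM and overlapped WT. The fitted log2 fold change was -0.95 in 95Cb (adjusted p = 0.0210), -0.91 in 82Eb (adjusted p = 0.0288), -0.83 in 95Ca (adjusted p = 0.0714) and -0.64 in 21D (adjusted p = 0.336), and it was -0.0046 in 95Cc (adjusted p = 0.994). None passed the fold threshold, so Jheh1 was not called in any strain.

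Jheh2, which lies between them, did not pass the test in any strain and overlapped WT in all 5. Its WT libraries stood at 124, 216 and 117 CPM, and strain means ran from 118 ± 38.1 CPM in 95Ca to 155 ± 30.5 in 95Cc. Log2 fold changes were between -0.32 (95Cb) and 0.08 (95Cc), and the lowest adjusted p was 0.361. The difference between the 3 paralogs can be read within each library, where depth cancels. In WT the count of Jheh3 was 0.975 to 1.10 times that of Jheh2, compared with 0.361 to 0.429 in 95Cb, 0.329 to 0.458 in 82Eb, 0.268 to 0.563 in 21D, 0.492 to 0.589 in 95Ca and 0.654 to 0.846 in 95Cc. No strain overlapped WT in this ratio, and the log2 differences were -1.44, -1.40, -1.35, -0.98 and -0.53 in that order (exact two-sided permutation p = 0.1 for each, the smallest that 3 against 3 libraries allow). The ratio of Jheh1 to Jheh2 was 0.435 to 0.458 in WT and 0.210 to 0.388 over the 12 libraries of 21D, 82Eb, 95Ca and 95Cb, while in 95Cc it was 0.414 to 0.437 and overlapped WT narrowly (exact p = 0.2, log2 difference -0.09). A ratio of this kind shows that the paralogs differed unequally and not which of them was stable.

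**Figure D2:**
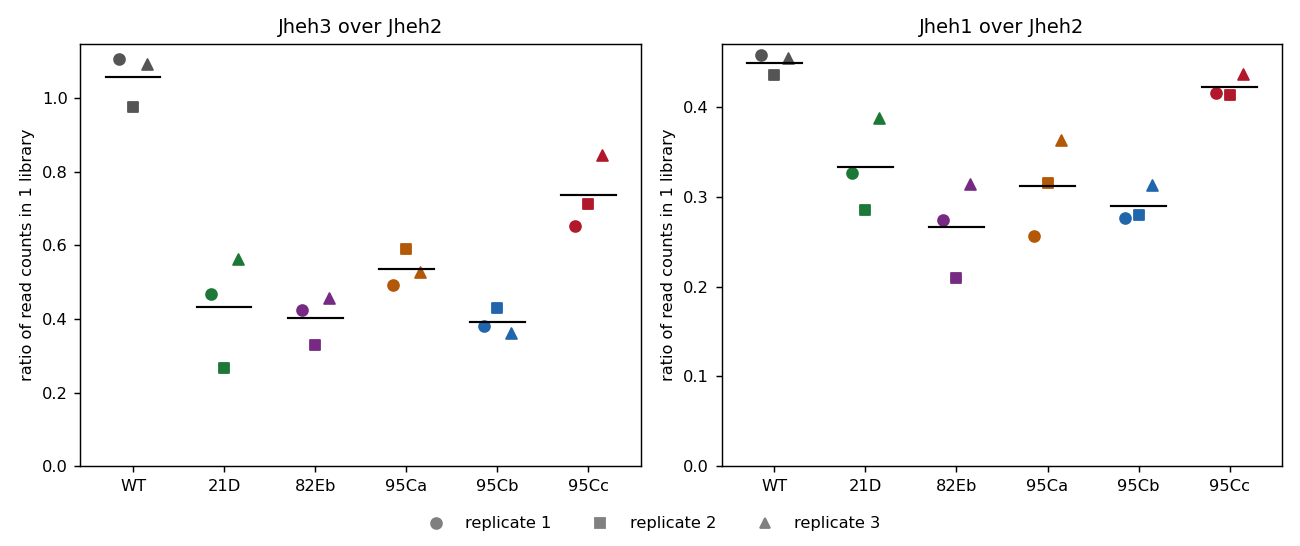
Ratio of read counts within each library for Jheh3 over Jheh2 (left) and Jheh1 over Jheh2 (right), by group on linear axes from 0; points are replicates and bars group means (n = 3). WT lies at 0.975 to 1.10 on the left with no strain overlapping it, and on the right 95Cc (0.414 to 0.437) lies next to WT (0.435 to 0.458).

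The esterase gene Jhe moved the other way at a much lower level. WT libraries had 5.01, 3.94 and 4.06 CPM (109, 47 and 68 counts), and 82Eb libraries 9.34, 9.82 and 9.39. Jhe rose in 82Eb (2.20 times the WT mean; log2 fold change 1.15, SE 0.24, adjusted p = 0.0452). This call was lost with library totals (adjusted p = 0.0504) and on leaving out any 1 of the 6 libraries, with log2 fold changes of 0.999 to 1.34 and adjusted p of 0.0535 to 0.197. It was kept with replicate numbers as a block (1.15, adjusted p = 0.000685), a fit that called 9.08% of all genes. The other strains read 7.81, 7.95 and 6.16 CPM in 21D, 6.64, 7.18 and 9.62 in 95Cb, and 6.26, 7.22 and 7.52 in 95Cc, all above WT, whereas 95Ca with 4.92, 6.90 and 5.83 overlapped it. Their log2 fold changes of 0.79, 0.78, 0.70 and 0.51 did not pass the test (adjusted p = 0.422, 0.137, 0.151 and 0.524).

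Read against all genes, 1 of 8 genes was called in 21D, where 1.01% of the 12443 genes tested were called. In 82Eb 2 of 8 were called (4.53% of all genes), in 95Cb 1 of 8 (7.39%), in 95Ca 1 of 8 (2.75%) and in 95Cc 0 of 8 (4.80%). In 95Cc, 3 of the 8 had an unadjusted p below 0.05 in edgeR, namely Jheh3 (0.0114), Jhe (0.0224) and Kr-h1 (0.0406), where 20.7% of all genes tested did, and DESeq2 also called 0 of 8. Genes whose 3 libraries all lay outside the WT range numbered 3 of 8 in 21D, 82Eb and 95Cb, against 13.8%, 20.6% and 30.7% of all genes tested, and 2 of 8 in 95Ca and 95Cc, against 19.1% and 24.5%. The 5 comparisons share the WT libraries.

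**Figure D3:**
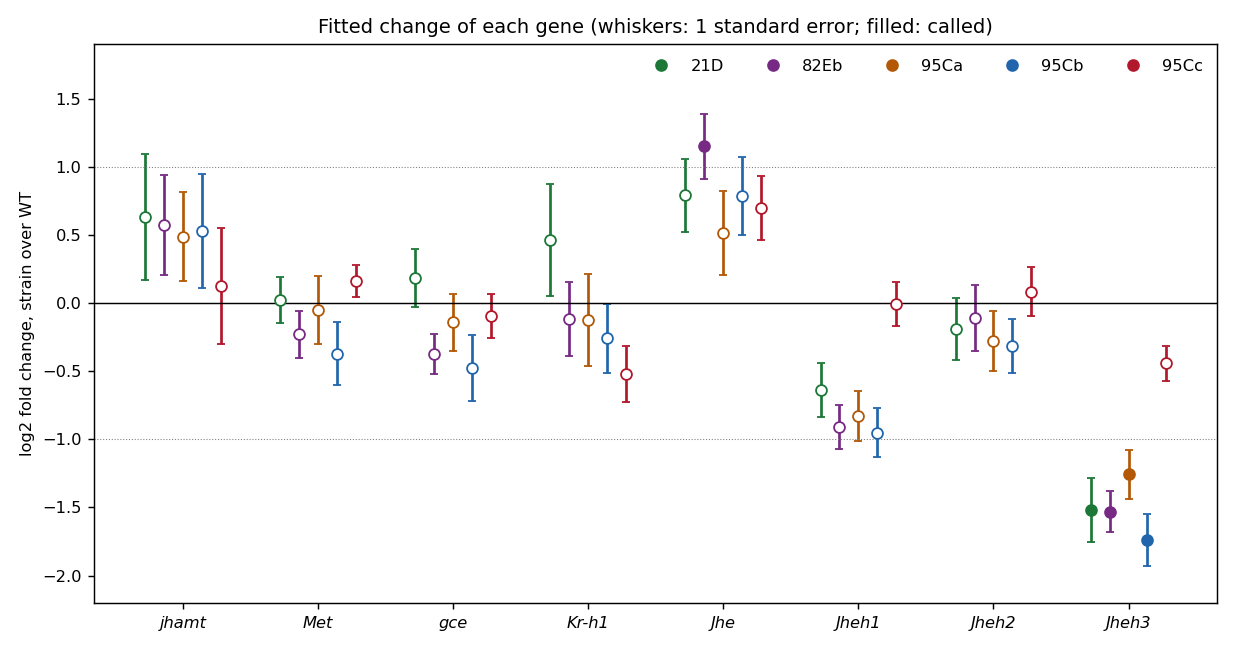
Fitted log2 fold change of each gene in each strain over WT (edgeR; whiskers 1 SE; filled symbols are called genes; dotted lines mark 2-fold). Jheh3 is filled in 21D, 82Eb, 95Ca and 95Cb (-1.74 to -1.26) and Jhe in 82Eb (1.15).

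In the main fits, the genes for synthesis, reception and response did not pass the test in any strain. jhamt was scarce, with 12 to 56 counts per library, so that only large differences were detectable. WT libraries had 1.33, 1.17 and 0.775 CPM, and the highest reading was 2.94 CPM in 21D replicate 2. Log2 fold changes ran from 0.13 in 95Cc to 0.63 in 21D with SEs of 0.33 to 0.46, and the lowest adjusted p was 0.475.

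The receptor genes Met and gce were present at similar levels. Met stood at 41.6, 51.4 and 46.2 CPM in WT, and its group means ran from 36.9 ± 9.81 in 95Cb to 50.9 ± 2.94 in 95Cc (SD, n = 3). gce stood at 50.2, 70.5 and 61.8 CPM in WT and from 44.5 ± 10.5 in 95Cb to 66.9 ± 22.3 in 21D. Every strain overlapped WT for both genes. In the main fits, the log2 fold changes with the lowest adjusted p were -0.37 for Met in 95Cb (0.358) and -0.37 for gce in 82Eb (0.239). Among the alternative fits, the adjusted p of Met in 82Eb went down to 0.00657. Its log2 fold changes there were -0.41 to -0.13, under the fold threshold. With replicate numbers as a block, gce in 82Eb was -0.37 with an adjusted p of 0.00474, under the fold threshold. In that fit 48.3% of all genes tested had an unadjusted p below 0.05. The lowest library of the study for Met, at 25.3 CPM, was the library labelled 95Ca deletion, replicate 2, and without it Met in 95Ca changed from -0.05 to 0.17 and gce from -0.14 to 0.0099 on the log2 scale.

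Kr-h1 varied more within groups than between them. Its levels were 60.0, 120 and 55.8 CPM in WT and 80.2, 180 and 54.2 in the 21D strain. The 82Eb strain had 54.5, 103 and 52.8 CPM and the 95Ca strain 105, 37.1 and 63.1, while the 95Cb libraries read 71.3, 76.6 and 51.1. Only the 95Cc libraries lay close together, at 55.9, 49.2 and 50.3 CPM. Log2 fold changes were 0.46, -0.12, -0.12, -0.26 and -0.52 in the order 21D, 82Eb, 95Ca, 95Cb and 95Cc, with the lowest adjusted p, 0.214, in 95Cc. Kr-h1 followed the first principal component within groups (r = 0.88 over 18 libraries after subtracting group means, a description), as did Jheh2 (0.91) and Jheh1 (0.75). Jheh3 did not (0.10), and Jhe ran against it (-0.66). Without the library labelled 95Ca deletion, replicate 2, the Kr-h1 value in 95Ca was 0.12, and without WT replicate 2 it was 0.15.

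**Figure D4:**
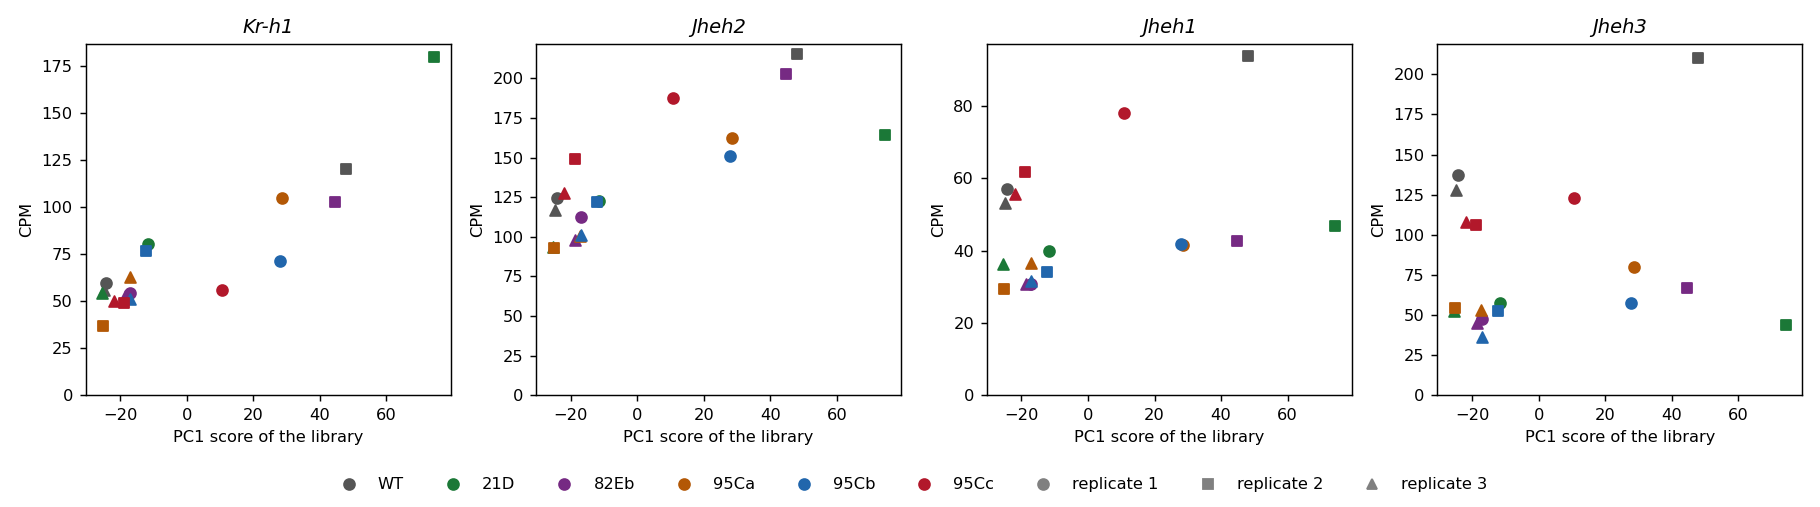
CPM of Kr-h1, Jheh2, Jheh1 and Jheh3 (linear axes from 0) against each library's score on the first principal component of the 500 most variable genes, colored by group with replicates by symbol. Kr-h1 is highest (180 CPM) in 21D replicate 2, the library with the highest score (74.3), where Jheh3 is 43.9 CPM.

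Over all 6 groups together, 3 of the 8 genes differed: Jheh3 (adjusted p = 1.06e-05), Jheh1 (0.000144) and Jhe (0.0476), where 19.2% of 13096 genes passed. Without the replicates numbered 1, or without those numbered 3, only Jheh3 remained (adjusted p = 0.0133 and 0.0116). Of all genes, 580 of 13053 and 441 of 13344 then passed, against 2517 of 13096 with all libraries. Without the replicates numbered 2, Jheh3 and Jheh1 passed, Jhe did not (adjusted p = 0.0729) and Met did (0.00729). There 3609 of 13037 genes passed. The Jhe call was also ended by no filter on low counts (adjusted p = 0.0542) and by replicate numbers as a block (0.0635). With 1 of the 18 libraries left out at a time, Jheh3 and Jheh1 passed each time, whereas Jhe was lost in 12 of 18 cases (adjusted p from 0.0507 to 0.117): WT replicates 2 and 3, 21D replicates 1 and 3, 95Ca replicate 3, 95Cb replicate 2 and every replicate of 82Eb and 95Cc. The other genes gave adjusted p values of 0.240 for gce, 0.346 for Kr-h1, 0.487 for Met, 0.707 for Jheh2 and 0.841 for jhamt. The order of the Jheh3 means was WT, 95Cc, 95Ca, 82Eb, 21D and 95Cb. The last 4 were not told apart in any of their 6 pairs (adjusted p from 0.449 to 1).

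The 95Cc strain differed from the other deletion strains in Jheh3. All 10 pairs of strains were compared in the fit of 18 libraries, a comparison added after the data had been seen. Jheh3 was higher in 95Cc than in 21D by 1.07 on the log2 scale (SE 0.18, adjusted p = 0.0018; 6.17% of all genes called), than in 82Eb by 1.09 (SE 0.18, adjusted p = 0.00101; 7.57%) and than in 95Cb by 1.26 (SE 0.18, adjusted p = 0.000213; 13.4%). Over 95Ca the difference was 0.81 (SE 0.18, adjusted p = 0.0104), which stayed under 2-fold, and 6.03% of all genes were called in that pair. Without the library labelled 95Ca deletion, replicate 2, it was 0.80 (adjusted p = 0.0425). It did not pass without 95Ca replicate 3 (0.73, adjusted p = 0.0579) or 95Cc replicate 1 (0.76, adjusted p = 0.05002). Leaving out 21D replicate 2 brought the difference from 21D under 2-fold (0.89). No other single library ended the calls over 21D, 82Eb and 95Cb. Jheh1 was also higher in 95Cc, by 0.63 over 21D, 0.91 over 82Eb, 0.82 over 95Ca and 0.91 over 95Cb (adjusted p = 0.0119, 0.000644, 0.00206 and 0.000432), each under 2-fold. Its difference from 21D did not pass without 95Cc replicate 1 (0.49, adjusted p = 0.107) or 21D replicate 1 (0.56, adjusted p = 0.0636). Jhe in 95Cc did not differ from any other deletion strain past the threshold (adjusted p from 0.251 to 0.871).

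Summed tissue markers also differed between libraries and groups. The summed level of 6 midgut markers (alphaTry, betaTry, Amy-p, Mal-A1, Jon25Bii and Jon65Aiv) was 10720, 693 and 11030 CPM in WT and 29.6 to 3491 CPM in the deletion strains, and none of the 6 was at 0 in any library. Within WT, 82Eb, 95Ca, 95Cb and 95Cc, the library with the lowest midgut sum had the highest Jheh3 level. In 21D the library with the lowest midgut sum, replicate 2 at 29.6 CPM, had the lowest Jheh3 level of its strain (43.9 CPM). The 95Cc strain with 836 to 2326 CPM of midgut markers overlapped 95Cb with 747 to 2977 CPM. The 6 prothoracic gland markers, whose cells adjoin the corpora allata, summed to 80.3 to 146 CPM in WT, 107 to 137 in 21D, 104 to 133 in 95Cc, and 153 to 295 in 82Eb, 95Ca and 95Cb. Salivary glue genes, which are switched on during the third instar, summed to 12321 to 20234 CPM in WT. All libraries of 82Eb (22707 to 31370 CPM) and 95Cb (24609 to 26383) were above that range, while 95Ca (17914 to 28145), 21D (8589 to 29102) and 95Cc (10540 to 13742) overlapped it. The sums of 6 fat body markers, 67105 to 92645 CPM in WT, overlapped those of every strain, and all 24 markers were detected. The part of tissue makeup or developmental age in the results was not tested.

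Across the 18 libraries, given as a description of points that share strains and libraries, Jheh1 and Jheh3 varied together (r = 0.89, rho = 0.79). So did Met and gce (r = 0.73, rho = 0.68). Jhe ran against Jheh3 (r = -0.71, rho = -0.67) and Jheh1 (r = -0.63, rho = -0.61). Among 11606 genes with a mean of at least 1 CPM, the genes whose log2 levels were most like Jheh3 were Mal-A2, a maltase gene (r = 0.95), and Vha100-5, a V-ATPase subunit gene (r = 0.95). Jheh1 was most like CG13492 (0.96) and the cytochrome P450 gene Cyp6a9 (0.95), and Jheh2 most like CG9254 (0.93) and ttm2 (0.92). Kr-h1 was most like DCP2 (0.97) and CG42460 (0.96), gce most like eIF4H1 (0.96) and sqd (0.94), Met most like mRpL30 (0.93) and mt:ND2 (0.92), Jhe most like dgt1 (0.85) and CG43102 (0.83), and jhamt most like Cpsf73 (0.79) and MED23 (0.79).

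Of 44 other genes of the pathway in 5 lists, 37 were tested in 21D and 38 in each other strain. Mvk had 0 counts in all libraries, and Jhbp4, Jhbp10, Jhbp11, Jhbp12 and Jhbp13 were too low, as was Jhbp16 in 21D. Of these, 2 rose and 6 fell in 95Cb, 1 rose and 3 fell in 82Eb, and 1 fell in each of 95Ca and 95Cc, while 0 were called in 21D. The shares of all genes called were 7.39% in 95Cb, 4.53% in 82Eb, 2.75% in 95Ca, 4.80% in 95Cc and 1.01% in 21D, so that the single call in 95Ca or 95Cc did not exceed them. In 21D, 6 of the 37 had an unadjusted p below 0.05 in edgeR, against 8.65% of all genes, and 2 passed in DESeq2. Among the 6 tested enzymes of the mevalonate pathway, which supplies the farnesyl precursor, no gene was called in any strain, and their median log2 fold change was -0.11 to 0.24 where the median of all genes was -0.02 to 0.03. With replicates paired by number, the share of all genes called was 3.7% in 21D and 9.08% in 82Eb. In this fit 4 pathway genes passed in 21D: Jhedup (1.16, adjusted p = 0.0241) and Eip93F (1.07, 0.0301) upward, and JhI-26 (-1.09, 0.0245) and Jhbp6 (-2.06, 0.0414) downward. In 82Eb the paired fit called 6 genes, adding JhI-26 (-1.85, adjusted p = 1.06e-05) and the allatostatin A receptor gene AstA-R1 (1.22, 0.00556) to the 4.

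Genes named for induction by the hormone or for related proteins held most of these calls. JhI-26, a gene induced by juvenile hormone in cultured fly cells, had 18.8, 35.8 and 13.8 CPM in WT. In 95Cb it read 5.10, 3.67 and 3.13 CPM and fell by 2.53 on the log2 scale (SE 0.31, adjusted p = 0.00449), a call kept without any single library. It also fell in 95Ca, at 8.65, 6.57 and 4.95 CPM (-1.63, SE 0.32, adjusted p = 0.0463), but leaving out any 1 of the 6 libraries ended that call (adjusted p from 0.0565 to 0.231). JhI-26 was also lower in 82Eb (-1.82, SE 0.41, adjusted p = 0.0590) and 21D (-1.08, SE 0.40, adjusted p = 0.503), without being called in the main fits. The 95Cc libraries, at 19.5, 18.1 and 15.9 CPM, lay within the WT range.

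Jhedup, a duplicate of the esterase gene Jhe, had 16.3, 35.2 and 18.7 CPM in WT. Jhedup read 48.6, 103 and 51.2 CPM in 82Eb, where it rose by 1.57 on the log2 scale (SE 0.30, adjusted p = 0.0336). That call was kept only on leaving out WT replicate 2 and was lost without any other library (adjusted p up to 0.153).

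The takeout gene (to) and the Jhbp genes encode proteins of the family that includes insect juvenile hormone carriers. takeout had 26, 22 and 24 counts in WT, 2, 4 and 0 in 82Eb, 5, 3 and 0 in 95Cb, and 51, 49 and 42 in 95Cc. It fell in 82Eb (log2 fold change -3.56, SE 0.65, adjusted p = 0.0303) and 95Cb (-3.35, SE 0.56, adjusted p = 0.0135), at levels near 3 counts. In 95Cc all libraries were above WT, with a value of 0.96 (adjusted p = 0.0373) under the fold threshold. The call in 82Eb was kept only without 82Eb replicate 2, and the call in 95Cb was lost without 95Cb replicate 2 or WT replicate 3 (adjusted p up to 0.0635).

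Jhbp2 had 13.8, 20.7 and 13.5 CPM in WT and 54.6, 42.4 and 45.7 CPM in 95Cb, where it rose by 1.53 on the log2 scale (SE 0.17, adjusted p = 0.00243), with the call kept without any single library. Jhbp6 had 57, 42 and 46 counts in WT and 0 to 18 counts in the 15 libraries of the deletion strains. It fell in 82Eb (-1.90, adjusted p = 0.0152), 95Cb (-1.74, 0.0101) and 95Cc (-1.88, 0.0101), with -2.03 in 21D (0.119) and -2.92 in 95Ca (0.0860) not called. Without 82Eb replicate 1, WT replicate 1 or WT replicate 3 the call in 82Eb was lost, without WT replicates 1 or 3 that in 95Cb, and without 95Cc replicates 2 or 3 that in 95Cc (adjusted p up to 0.102). Jhbp14 was called in 95Cb alone of the 5 strains, where it fell from 10.1, 12.3 and 9.18 CPM to 6.54, 2.96 and 3.72 (-1.32, SE 0.28, adjusted p = 0.0300). That call was lost without 95Cb replicate 2 or 3 or WT replicate 1 or 3 (adjusted p up to 0.176).

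**Figure D5:**
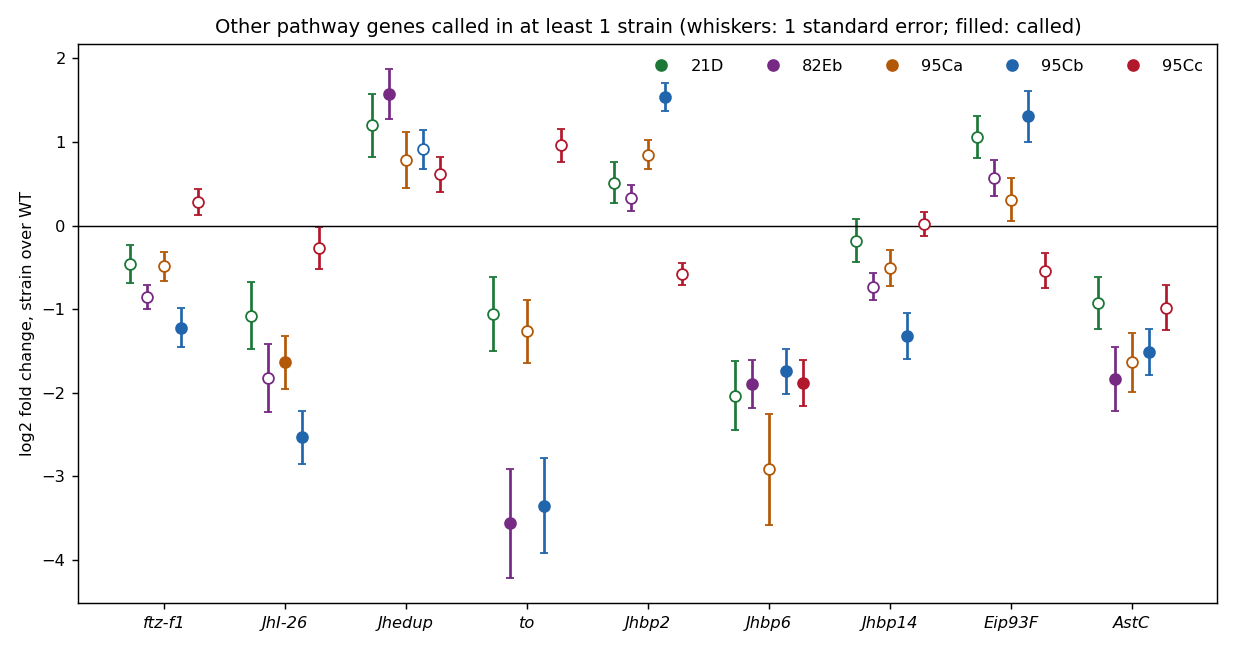
Fitted log2 fold change over WT (edgeR; whiskers 1 SE; filled symbols are called) of the 9 other pathway genes called in at least 1 strain. takeout reaches -3.56 in 82Eb and -3.35 in 95Cb but 0.96 in 95Cc, and Jhbp6 lies between -2.92 and -1.74 in all 5 strains.

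The remaining calls in 95Cb were of 3 regulatory genes. The nuclear receptor gene ftz-f1, a partner of the hormone receptors and a competence factor for metamorphosis, had 24.0, 28.9 and 24.9 CPM in WT and 9.02, 13.7 and 11.6 in 95Cb (-1.22, SE 0.23, adjusted p = 0.0204). Eip93F, the adult specifier E93, had 19.0, 26.9 and 29.8 CPM in WT and 44.3, 78.0 and 69.9 in 95Cb (1.31, SE 0.30, adjusted p = 0.0418). The neuropeptide gene AstC, whose product is known to inhibit the corpora allata in several insects, had 3.31, 4.61 and 5.13 CPM in WT and 1.44, 1.56 and 1.75 in 95Cb (-1.51, SE 0.28, adjusted p = 0.0195). AstC also fell in 82Eb, with 0.885, 0.912 and 1.69 CPM (-1.83, SE 0.39, adjusted p = 0.0486). All AstC libraries lay below WT in 5 strains, with -1.64 in 95Ca (adjusted p = 0.0695) not called. All ftz-f1 libraries lay below WT in 4 strains, with -0.85 in 82Eb (adjusted p = 0.0242) under the fold threshold. Eip93F lay above WT in 3 strains and below it in 1. Per strain, 13.8% to 30.7% of all genes tested lay outside the WT range.

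The ftz-f1 call was lost without 95Cb replicate 3, WT replicate 1 or WT replicate 3 (adjusted p up to 0.0949), and the Eip93F call was kept only without 95Cb replicate 1 (adjusted p up to 0.140). AstC in 95Cb was kept without WT replicate 1 or 2 only, and in 82Eb it was lost on leaving out any 1 of the 6 libraries (adjusted p up to 0.213). In the test over 6 groups 11 of 39 pathway genes passed: the 9 named above, br (adjusted p = 0.00732) and the allatostatin A receptor gene AstA-R2 (0.00392), against the 19.2% of all genes. The pupal specifier br, chosen after its values were seen, had 1331 to 1636 CPM in WT, 1931 to 3249 in 21D, 82Eb, 95Ca and 95Cb, and 998 to 1231 in 95Cc, and was not called against WT in any strain (adjusted p from 0.121 to 0.546).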

How the data were processed

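Total RNA of whole third-instar larvae was depleted of rRNA and sequenced as paired ends in strand-specific libraries. Per the study's methods, the authors trimmed reads with Trimmomatic (0.39 in the submitters' processing notes, which also list cutadapt 1.15), used HISAT2 for alignment to dm6 and featureCounts for gene counts. Raw, whole-number counts were deposited. The annotation, strand and multi-mapping settings are not given in the sources used here, and they bear on overlapping and paralogous genes.

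CPM were computed here from library totals, and CPM per kilobase from the exonic lengths deposited with the counts. In the Ensembl BDGP6 annotation, 99.7% of the matched gene IDs kept the deposited position. Counts were tested with edgeR 4.0.16 in R 4.3.3 (filterByExpr, TMM, quasi-likelihood F test, Benjamini-Hochberg over all genes tested), 1 fit per strain with its 3 libraries and the 3 of WT. As in the study, a gene was called when its adjusted p was below 0.05 and it differed by more than 2-fold (log2 beyond 1 in either direction). A fit of all 18 libraries gave the test over 6 groups and the pairs of strains, and within-library ratios were compared by exact permutation. Each SE is the log2 fold change divided by the square root of F. Alternatives were DESeq2 1.42.0, library totals in place of TMM, no filter, the 18-library fit, replicate numbers as a block, replicates 1 and 3 only, and each library left out. With a library left out, the remaining ones of a group were assumed to vary like the other group.

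Whether replicate numbers pair the libraries was checked by correlating deviations from the group means with those of WT. In 21D and 82Eb same-numbered libraries deviated together (0.70, 0.86 and 0.72, and 0.71, 0.87 and 0.71). Replicate 2 was the outlying library on the first principal component in WT and both strains. As deviations cancel within a group, these correlations are not independent and cannot show that numbers pair the libraries. For these strains the blocked fit is given for Jheh3, Jhe and gce, and elsewhere where it changes a call or a count of calls. In 95Ca, 95Cb and 95Cc same-numbered libraries did not deviate together (-0.66 to 0.59).

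The 8 genes and the pathway and marker lists were chosen with earlier results of these data known. Pathway genes were named when called in at least 1 strain (at most 10, by smallest adjusted p), together with the 2 genes most like each of the 8 in log2 CPM (prior count 2). JhI-1 and phm were matched under the symbols RNaseZ and phtm. The pairs of strains and the libraries left out of the 18-library fit were added after seeing the data.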

Additional observations from a re-analysis of the deposited data

Results flagged for a closer look

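Differences between the changes of 2 deletion strains over the shared WT libraries were tested in the fit of 18 libraries with edgeR, with p-values adjusted over 13096 genes in each pair and 10 pairs compared. Jheh3 was higher in 95Cc than in 21D by 1.07 on the log2 scale (SE 0.18, adjusted p = 0.0018), than in 82Eb by 1.09 (SE 0.18, adjusted p = 0.00101) and than in 95Cb by 1.26 (SE 0.18, adjusted p = 0.000213). All 3 libraries of 95Cc were above all 9 of those strains, but the share of all genes separated in this way was not computed.

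For 4 other pathway genes, 95Cc and another strain lay on opposite sides of WT in every library. The share of all genes with this pattern was not computed, while 24.5% of all genes tested lay outside the WT range in 95Cc. These pairs were picked by that separation in the same libraries, so their p-values give no separate support. Between 95Cc and 21D, 82Eb, 95Ca and 95Cb, 6.17%, 7.57%, 6.03% and 13.4% of all genes were called. The pupal specifier br was lower in 95Cc by -1.14 against 21D, -1.24 against 82Eb, -1.14 against 95Ca and -1.25 against 95Cb (adjusted p from 0.00265 to 0.00967). The difference from 95Ca was lost without 95Ca replicate 3 or 95Cc replicate 1 (adjusted p up to 0.0529). Eip93F was lower in 95Cc by -1.60 against 21D, -1.11 against 82Eb and -1.87 against 95Cb (adjusted p = 0.000836, 0.00746 and 9.4e-05), each kept without any single library. takeout was higher in 95Cc by 4.52 over 82Eb, 2.22 over 95Ca and 4.27 over 95Cb (adjusted p = 0.00025, 0.0129 and 0.000181), on 0 to 15 counts per library in those strains. Its difference from 95Ca was lost without 95Ca replicate 3 (adjusted p = 0.0636). Jhbp2 was lower in 95Cc by -1.43 against 95Ca and -2.15 against 95Cb (adjusted p = 9.9e-05 and 9.0e-07), each kept without any single library. Glue gene sums were 10540 to 13742 CPM in 95Cc and 17914 to 31370 CPM in 82Eb, 95Ca and 95Cb. In 21D, at 8589 to 29102 CPM, they overlapped those of 95Cc. The part of glue genes or developmental age was not tested.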

How the results depend on the processing

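The lower Jheh3 level was called under all 12 alternatives in 82Eb (log2 fold change -1.60 to -1.41) and 95Cb (-1.81 to -1.55), in 5 of 12 in 21D (-1.63 to -1.23, adjusted p up to 0.230) and in 6 of 12 in 95Ca (-1.37 to -1.14, adjusted p up to 0.139). Jhe in 82Eb was called in 5 of 12 (0.999 to 1.34, adjusted p up to 0.197). The number of the 8 genes called moved to 0 in 21D with library totals or with no filter (0 to 1 with a library left out), to 1 in 82Eb with library totals (1 with any library left out), and to 0 in 95Ca with library totals (0 to 1 with a library left out). Over 6 groups it was 1 to 3 with a replicate number left out, and 2 with no filter or with the replicate block. Of all genes, 441 of 13344 to 3609 of 13037 passed with a replicate number left out.

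Calls among the other pathway genes moved in 21D to 3 in the 18-library fit, 2 with DESeq2 and 3 with replicates 1 and 3, in 82Eb to 1 with library totals and 7 with replicates 1 and 3, in 95Ca to 3 in the 18-library fit, 3 with DESeq2 and 0 with library totals, and in 95Cc to 2 with DESeq2. Over all genes these alternatives called 442, 372 and 485 in 21D (126 in the main fit) and 396 and 1254 in 82Eb (563). They called 539, 564 and 297 in 95Ca (343) and 700 in 95Cc (598). With a library left out, pathway calls were 0 each time in 21D and 95Ca and ranged from 0 to 3 in 82Eb, 2 to 9 in 95Cb and 0 to 2 in 95Cc. Calls over all genes were then 0 to 200, 135 to 328, 242 to 599, 342 to 917 and 273 to 809 in that order. The replicate block gave 4 pathway calls in 21D, 2 in 95Cb and 0 in both 95Ca and 95Cc, and ended the Jheh3 call in 95Ca (0 of 8 genes; -1.26, adjusted p = 0.139). With the block 3.7%, 3.14%, 0.762% and 1.97% of all genes were called in 21D, 95Cb, 95Ca and 95Cc. Pairing by number was not established in any strain, and in 95Ca, 95Cb and 95Cc same-numbered libraries did not deviate together. Against WT the block changed no other call among the 8 genes. Over 6 groups it ended that of Jhe (adjusted p = 0.0635).

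Signs reversed only for values that were not called, the largest main value among them being Kr-h1 in 21D (0.46). With library totals Met in 21D was -0.035. With replicates 1 and 3, Met in 21D was -0.029, gce in 21D -0.0074, Met in 95Ca 0.13, gce in 95Ca 0.0038, Kr-h1 in 95Ca 0.40 and Jheh1 in 95Cc 0.18. Jheh1 in 95Cc was 0.0011 with no filter and 0.0014 with the replicate block. With a library left out the ranges were -0.016 to 0.078 for Met, -0.0085 to 0.32 for gce and -0.036 to 0.74 for Kr-h1 in 21D, -0.36 to 0.16 for Kr-h1 and -0.35 to 0.081 for Jheh2 in 82Eb, -0.20 to 0.17 for Met, -0.30 to 0.0099 for gce and -0.46 to 0.15 for Kr-h1 in 95Ca, -0.39 to 0.025 for Kr-h1 in 95Cb, and -0.39 to 0.39 for jhamt, -0.10 to 0.13 for Jheh1 and -0.027 to 0.25 for Jheh2 in 95Cc. Apart from the alternatives' own construction, the cause was not tested. Over all genes, the block called 1128 in 82Eb in place of 563. Calls in 21D were 126, but 460 with the block, 485 with replicates 1 and 3, 372 with DESeq2 and 0 to 200 with a library left out. Low counts limit the values of jhamt (12 to 56 per library), takeout and Jhbp6, among others.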
